A study of Mus musculus with 8 samples.

Results

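The 9 genes described here are read-outs and brakes of bone morphogenetic protein (BMP) signalling: Id1, Id2, Id3, Id4, Smad6, Smad7, Smad9, Bambi and Atoh8. They were chosen by name, as the probes of an Agilent one-colour mouse array that carry these gene names or their transcript accessions. Each gene had exactly 1 probe, so 9 of 55681 probes were members, and 8 of the 24288 genes that could be tested. The exception was Bambi, whose probe was too dim to enter the test.

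The arrays measured RNA of cardiac outflow tracts, the vessel-like segment that joins the embryonic heart to the aortic arches, dissected from mouse embryos at E10.5. The first group was 4 pools of Raldh2-/- embryos, which lack the main enzyme that makes retinoic acid in the embryo (Raldh2 is now named Aldh1a2). The second was 4 pools of wild type (WT) embryos, littermates per the labels. Every pool held 4 outflow tracts and was hybridised to 1 array. All dams, those of the WT embryos too, had all-trans-retinoic acid in their food at 0.1 mg/g between E7.5 and E8.5, so both groups had the early supplement and differed in genotype. The groups are called rescued knockout (KO) and rescued WT below, with pools 1, 2, 3 and 7 in the first and pools 1, 2, 5 and 7 in the second, numbered as in the labels. The labels do not tie a number in one group to the same number in the other. The p-values therefore come from unpaired tests, which set the difference between the group means against the spread of pools within groups. The deletion is in every cell of the embryo, so a difference is not tied to 1 cell type.

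BMP ligands bind paired serine-threonine kinase receptors, which phosphorylate Smad1, Smad5 and Smad9. These enter the nucleus with Smad4 and switch on a small set of immediate targets, the Id genes first among them. The same signal induces its own brakes, Smad6 and Smad7, which compete with the activating Smads at the receptor. In the outflow tract BMP signalling takes part in the entry of second heart field cells, in cushion formation and in septation by neural crest cells.

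The upstream sequences of 3 members are shown because Id and inhibitory Smad genes are direct Smad targets. Windows of 6 of the 9 members were searched in the RefSeq promoter table (GRCm38.p6). The table held no window for Id1. Smad7 and Bambi were left out of the search, so the table may hold windows for them. The 250 bases before the annotated start are printed for Id3, Id2 and Smad6, the searched members with the highest log2 fold changes over 8 pools. Id1 and Smad7, which were not searched, had higher log2 fold changes there than Smad6 (1.04 and 0.77 against 0.71). Without WT pool 1 that of Smad6 was 0.13. Capitals mark matches to the GC-rich Smad motif GGCGCC and to the Smad box motif GTCTG, searched on both strands.
Id3, chr4:136143572-136143821, plus strand: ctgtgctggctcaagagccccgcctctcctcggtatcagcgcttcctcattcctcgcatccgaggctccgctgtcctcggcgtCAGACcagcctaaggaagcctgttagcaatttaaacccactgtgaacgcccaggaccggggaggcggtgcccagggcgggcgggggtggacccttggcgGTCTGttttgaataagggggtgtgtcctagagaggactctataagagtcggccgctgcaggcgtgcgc
Id2, chr12:25096093-25096342, minus strand: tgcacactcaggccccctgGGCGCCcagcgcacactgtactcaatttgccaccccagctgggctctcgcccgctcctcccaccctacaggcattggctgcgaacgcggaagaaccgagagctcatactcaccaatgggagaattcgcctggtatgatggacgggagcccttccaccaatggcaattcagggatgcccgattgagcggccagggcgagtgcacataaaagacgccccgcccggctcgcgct
Smad6, chr9:64022060-64022309, minus strand: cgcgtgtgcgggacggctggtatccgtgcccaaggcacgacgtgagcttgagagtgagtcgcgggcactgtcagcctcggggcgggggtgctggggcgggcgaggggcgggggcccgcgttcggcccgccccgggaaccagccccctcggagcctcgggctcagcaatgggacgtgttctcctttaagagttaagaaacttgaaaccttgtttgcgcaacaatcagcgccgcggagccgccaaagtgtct

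The motif GGCGCC was present in 3 of the 6 member windows (Id2, Id4 and Smad9) and in 9.59% of the 32851 windows of the same length that were searched. The motif GTCTG was present in 1 member window, that of Id3, which held 2 matches, and in 42.2% of all windows. E-boxes (CANNTG), the sites of the bHLH factors that Id proteins hold back, were present in 3 of 6 windows and in 66.2% of all windows. The motif CCAAT was present in 2 of 6 windows and in 33.8% of all. A retinoic acid receptor site, the motif AGGTCA followed by itself after any 5 bases, was in 0 of 6 member windows and in 3 of the 32851. None of these motifs overlapped another in the member windows. The member windows were rich in G and C, at 62.8% to 75.6%, against a median of 52.4% over all windows. Matches describe letters only, and sites further from the start were not searched.

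**Figure D1:**
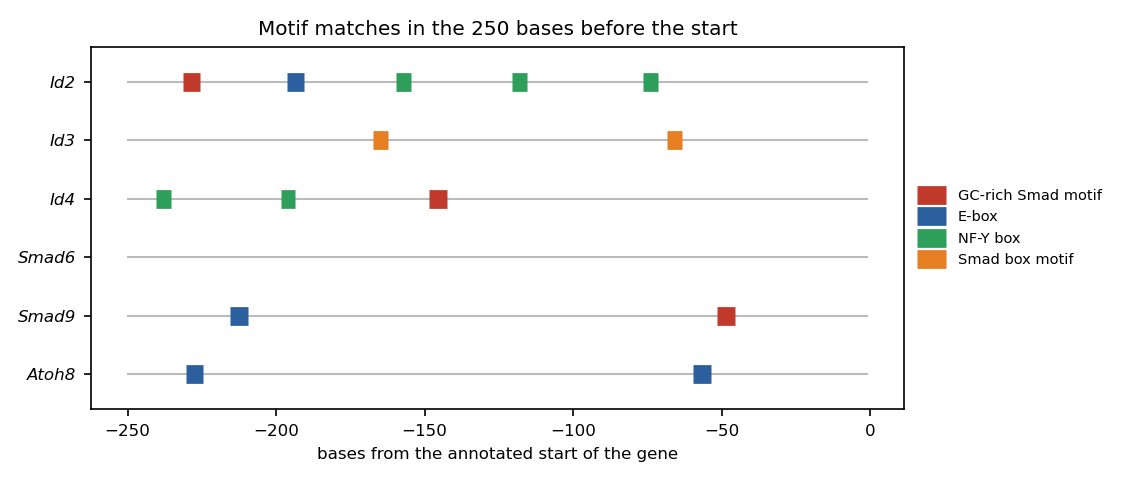
Positions of motif matches in the 250 bases before the annotated start of 6 member genes; the horizontal axis is the distance in bases from the start, each line is a gene and each box a match. Id2 holds 1 GC-rich Smad motif and 3 NF-Y boxes (the motif CCAAT), Id3 holds 2 Smad box motifs, and Smad6 holds none of the motifs drawn.

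The probes themselves are 60 bases long, and the first 30 bases of the same genes' probes are printed to show what was hybridised.
Id3 probe, chr4:135700075-135700249 (mm9, plus strand): tccgcatctcccgatccagacagctgagct
Id2 probe, chr12:25778904-25778963 (mm9, minus strand): tgagtgaaccttgtggactctttaattaga
Smad6 probe, chr9:63800980-63801039 (mm9, minus strand): cttttttaaagagaattatacagtagaact
The Id3 probe covers 175 bases of genome with 60 bases of sequence, so it skips 115 bases. The other 8 member probes lie on 60 unbroken bases. RNA was extracted without DNase. No member probe shared a run of more than 8 bases with another member's probe, or of more than 15 bases with any other probe of the array. The exon or untranslated region of each probe was not looked up, as no annotation of mm9 was used here.

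One array stood apart, and results are given with and without it. On the array of WT pool 1, 94.7% of spots were well above background, against 53.3% to 63.2% on the other 7. Its median correlation with the other arrays over the kept probes was 0.759, against 0.978 to 0.989. It gave the lowest or the highest value of all 8 pools in 90.7% of the genes tested. Levels below are log2 signals relative to the 75th percentile of the array, so 0 is that percentile itself; they compare pools for 1 probe and not probes with each other. Aldh1a2, the targeted gene, had log2 levels of 2.02, 2.01, 1.87 and 0.059 in KO pools 1, 2, 3 and 7, and of 1.92, 3.21, 2.98 and 3.65 in WT pools 1, 2, 5 and 7. Its log2 fold change was -1.45 ± 0.55 (SE; limma adjusted p = 0.735), and -1.79 ± 0.50 without WT pool 1 (adjusted p = 0.364). Whether its probe lies in the deleted part of the gene was not looked up. Heart muscle, smooth muscle and endothelial markers were well above background in every pool, apart from 1 smooth muscle marker in WT pool 7.

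No member passed the test in the comparison of rescued KO with rescued WT pools. Of the 8 tested members 7 had a higher mean in the KO pools, and Atoh8 had a slightly lower one. Id1 and Id2 were the members whose 4 KO values all lay above all 4 WT values. With limma over 24288 genes, 0 of 8 members had an adjusted p under 0.05, as had 0% of all genes, and 0 members had an unadjusted p under 0.05, against 1.78% of all genes. The groups did not overlap, with the KO pools higher, in 2 of 8 members and in 3.95% of all genes. The median log2 fold change of the 8 was 0.74, beside 0.13 over all genes, and 57.1% of all genes had a positive one. In such whole-tissue RNA, fewer cells of a type and less RNA per cell cannot be told apart.

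The differences were smaller without WT pool 1. In that pool 7 of the 8 tested members had their lowest scaled level of all pools, by 1.20 to 2.41 (log2) under the mean of the other WT pools. Atoh8 had its highest, 0.45 above that mean. The 75th percentile used for scaling was a processed signal of 4211 on that array and 659 to 1134 on the others. Before scaling, Id4 (1671) and Smad9 (1388) had their highest signal of all pools there. Over all genes the median shift of that pool was -0.52, and 51.4% of genes were lowest in it. The shift differed between lists of genes. With log2 levels centred on the 7 other pools, the members' mean in that pool was -1.79. It was -1.97 for E proteins and -1.82 for receptor and common Smads, but 1.64 for macrophage and leukocyte and 1.13 for neural crest markers. How the shift depends on a gene's level was not tested. Without WT pool 1 all 8 members had a positive log2 fold change, as 59.3% of all genes did, but the median was 0.26, beside 0.052 over all genes. Again 0 of 8 members and 0% of 23668 genes passed with limma, although 10.6% of genes had an unadjusted p under 0.05. With array weights, which gave WT pool 1 a weight of 0.017, 8 genes passed and no member did. The slide held the KO arrays in row 1 and the WT arrays in row 2; position and genotype therefore cannot be told apart. The groups did not overlap, with KO higher, in 2 members and in 6.55% of all genes. Id2 and Smad7 had an unadjusted p under 0.05 with KO higher, as did 6.24% of all genes.

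**Figure D2:**
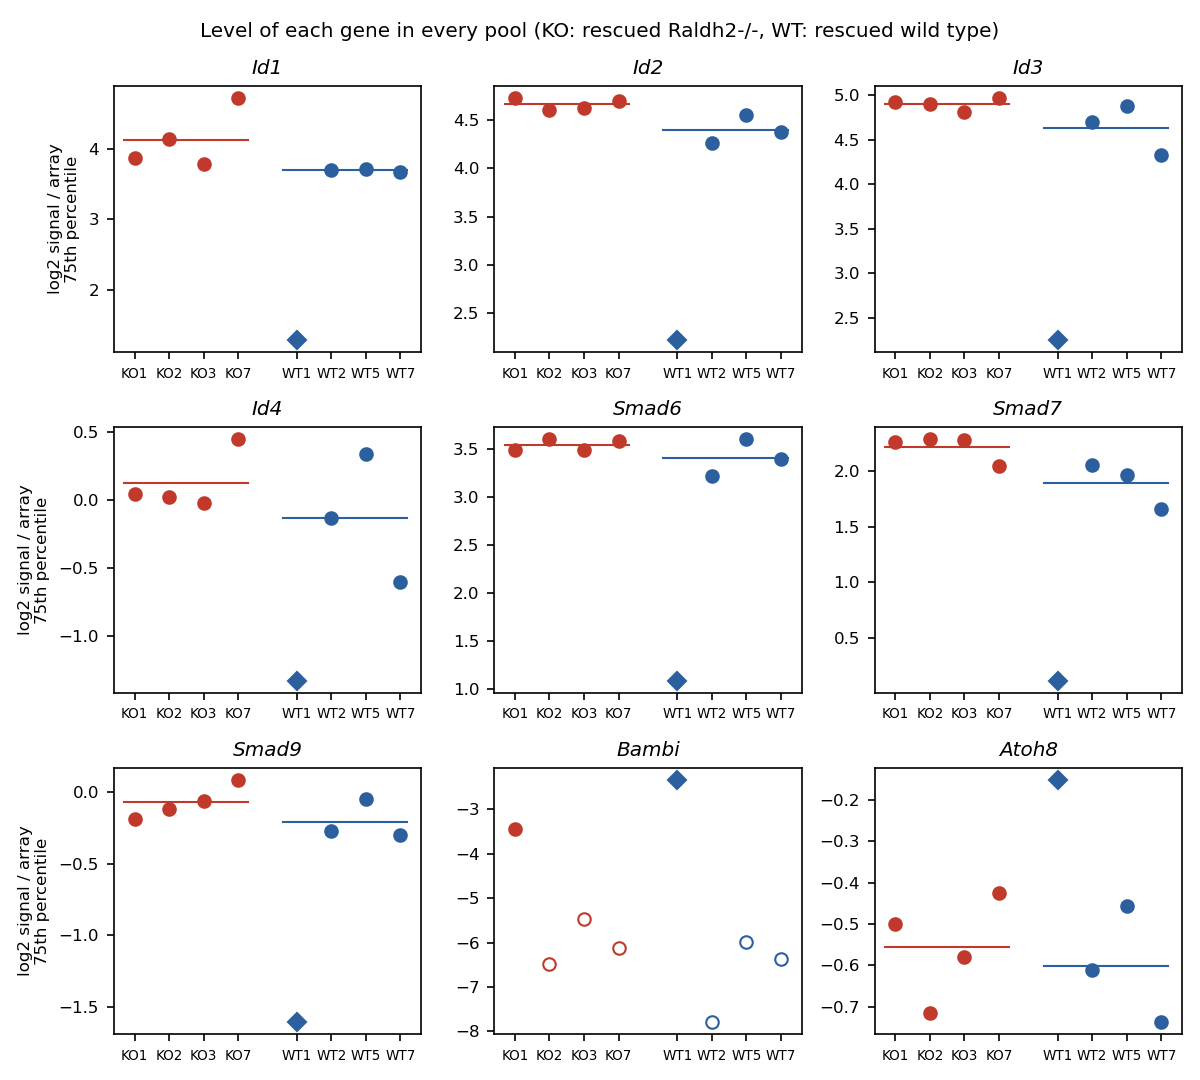
Log2 level, with 0 at the 75th percentile of the array (vertical axes, a separate scale for each gene) in each of 4 rescued KO pools (red, left) and 4 rescued WT pools (blue, right) for the 9 genes. Filled symbols are well above background and open ones are not, the diamond is WT pool 1, and lines are group means without that pool (not drawn for Bambi). WT pool 1 lies below every other pool for 7 genes, and Id1 and Id2 separate the groups.

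The Id genes encode helix-loop-helix proteins without a DNA-binding region, which pair with E proteins and so keep bHLH factors off DNA. Id1 had log2 levels of 3.88, 4.14, 3.79 and 4.72 in KO pools 1, 2, 3 and 7. In WT pools 1, 2, 5 and 7 it had 1.29, 3.71, 3.72 and 3.67. WT pools 2, 5 and 7 were almost level, and the lowest KO pool was above them by little. KO pool 7 was the highest of the 8 pools. The means were 4.13 ± 0.42 in KO and 3.1 ± 1.21 in WT pools (SD, n = 4 each), a log2 fold change of 1.04 ± 0.57 (SE; limma adjusted p = 0.735). Without WT pool 1 the WT mean was 3.70 ± 0.022 (SD, n = 3) and the log2 fold change 0.43 ± 0.22 (SE; limma adjusted p = 0.525). Leaving out KO pool 7 as well gave 0.24, so that pool carried much of the Id1 difference.

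Id2, a family member also known to respond to other signals than BMP, varied little within the KO group (SD 0.058, n = 4). Its log2 levels were 4.73, 4.61, 4.63 and 4.70 in KO pools 1, 2, 3 and 7. They were 2.22, 4.27, 4.55 and 4.38 in WT pools 1, 2, 5 and 7. The groups did not overlap with or without WT pool 1. The log2 fold change was 0.81 ± 0.51 (SE; limma adjusted p = 0.735), and 0.27 ± 0.10 without WT pool 1 (unadjusted p = 0.0337, limma adjusted p = 0.444), a 1.20-fold difference. Leaving out 1 more pool of these 7 kept it between 0.20 and 0.34.

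Id3, which overlaps in function with Id1 in vessels and neural tissue, had log2 levels of 4.93, 4.90, 4.81 and 4.97 in KO pools 1, 2, 3 and 7. In WT pools 1, 2, 5 and 7 the levels were 2.25, 4.70, 4.88 and 4.32. The groups overlapped by a single pair, as WT pool 5 was above KO pool 3. The log2 fold change was 0.86 ± 0.55 (SE; limma adjusted p = 0.735), and 0.27 ± 0.14 without WT pool 1 (limma adjusted p = 0.538). It was 0.11 when WT pool 7 was left out as well.

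Id4 is best known from neural progenitors. Its log2 levels were 0.041, 0.021, -0.019 and 0.45 in KO pools 1, 2, 3 and 7. They were -1.33, -0.13, 0.34 and -0.60 in WT pools 1, 2, 5 and 7. KO pool 7 stood apart from the other KO pools, and WT pool 5 lay above 3 of the 4 KO pools. The Id4 log2 fold change was 0.56 ± 0.38 (SE; limma adjusted p = 0.735), and 0.26 ± 0.23 without WT pool 1 (limma adjusted p = 0.704). Without WT pool 7 as well it was 0.019, and with quantile scaling of all 8 arrays it was 1.30.

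Smad6 and Smad7 are the inhibitory Smads, Smad6 acting mainly on BMP and Smad7 on both BMP and TGF-beta receptors. Smad7 had log2 levels of 2.27, 2.29, 2.28 and 2.05 in KO pools 1, 2, 3 and 7. It had 0.11, 2.05, 1.97 and 1.66 in WT pools 1, 2, 5 and 7. KO pools 1, 2 and 3 were almost level and above every WT pool, while KO pool 7 lay just below WT pool 2. The log2 fold change was 0.77 ± 0.44 (SE; limma adjusted p = 0.735). Without WT pool 1 it was 0.33 ± 0.13 (unadjusted p = 0.038, limma adjusted p = 0.451), with 0.21 to 0.41 when 1 more pool was left out.

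Smad6 differed less. Its log2 levels were 3.49, 3.60, 3.49 and 3.58 in KO pools 1, 2, 3 and 7, and 1.09, 3.22, 3.60 and 3.40 in WT pools 1, 2, 5 and 7. WT pool 5 was level with the highest KO pool. For Smad6 the log2 fold change was 0.71 ± 0.53 (SE; limma adjusted p = 0.735), and 0.13 ± 0.11 without WT pool 1 (limma adjusted p = 0.686). It ranged from 0.041 to 0.23 when 1 more pool was left out.

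Smad9, once called Smad8, is a receptor-activated Smad of the BMP branch and is itself induced by BMP. Its log2 levels were -0.19, -0.12, -0.062 and 0.080 in KO pools 1, 2, 3 and 7, and -1.60, -0.27, -0.053 and -0.30 in WT pools 1, 2, 5 and 7. WT pool 5 lay above 3 of the 4 KO pools. The log2 fold change was 0.48 ± 0.37 (SE; limma adjusted p = 0.735), and 0.14 ± 0.11 without WT pool 1 (limma adjusted p = 0.675). Quantile scaling of all 8 arrays gave 1.35 for Smad9, and 0.13 without WT pool 1.

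Bambi, a transmembrane pseudoreceptor without a kinase region that dampens TGF-beta family signals, was at the edge of detection. Its probe was well above background in 1 of 4 KO pools (pool 1) and in 1 of 4 WT pools (pool 1, the array that stood apart). Log2 levels were -3.44, -6.49, -5.48 and -6.12 in KO pools 1, 2, 3 and 7, and -2.35, -7.78, -6.00 and -6.37 in WT pools 1, 2, 5 and 7. The 6 values not well above background are given as measured. They entered a comparison only in the alternative without a filter on dim probes, where 0 of 9 members passed. The probe lies on chromosome 18 at 3516008 to 3516067 (mm9).

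Atoh8, a bHLH factor induced by BMP in endothelial cells and liver, was the member with the smallest difference. Log2 levels were -0.50, -0.71, -0.58 and -0.43 in KO pools 1, 2, 3 and 7, and -0.15, -0.61, -0.46 and -0.74 in WT pools 1, 2, 5 and 7. The groups overlapped throughout. The log2 fold change was -0.066 ± 0.25 (SE; limma adjusted p = 0.889), and 0.046 ± 0.12 without WT pool 1 (limma adjusted p = 0.894). The sign was also positive under quantile, median and normexp scaling of all 8 arrays, so no direction can be given for it.

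The 95% intervals show what sizes remain possible. Without WT pool 1, the interval of the log2 fold change was -0.091 to 0.96 for Id1, 0.027 to 0.51 for Id2 and -0.070 to 0.60 for Id3. It was 0.024 to 0.63 for Smad7 and -0.13 to 0.40 for Smad6. The Id4 interval was the widest, from -0.29 to 0.80, and that of Atoh8 ran from -0.22 to 0.32. These intervals are for single genes and are not adjusted for the number of genes tested. With all 8 pools the Id1 interval ran from -0.27 to 2.34. The residual SD of Id1 without WT pool 1 was 0.33, higher than in 73.0% of genes, while that of Id2, 0.10, was higher than in 11.6%.

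**Figure D3:**
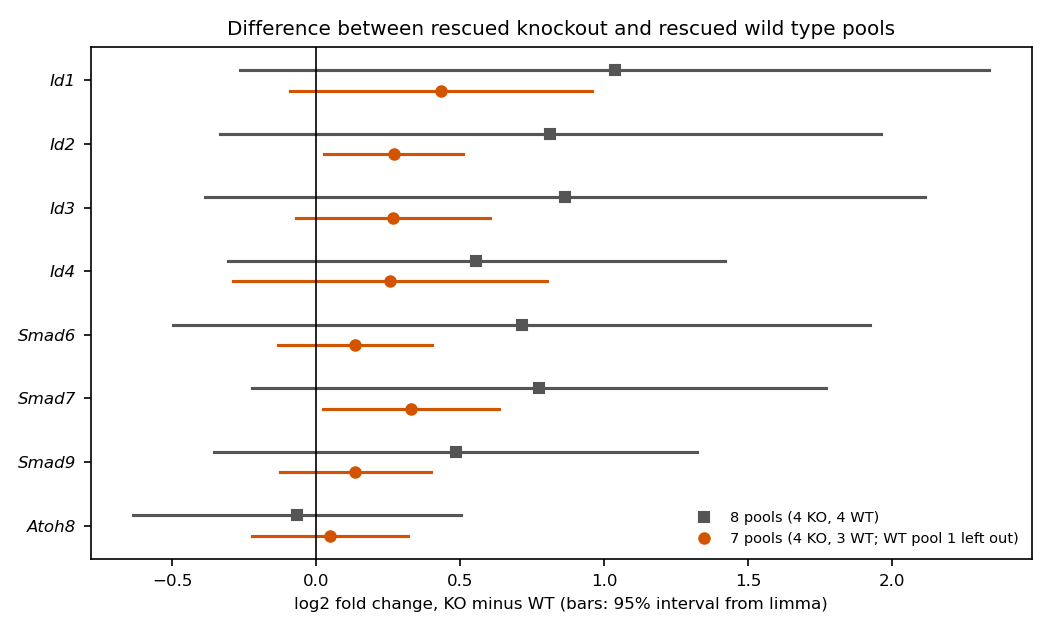
Log2 fold change, KO minus WT (horizontal axis), of the 8 tested genes with its 95% interval from limma, for all 8 pools (grey squares) and with WT pool 1 left out (orange circles). Without that pool the intervals are narrower and the values smaller, from 0.046 for Atoh8 to 0.43 for Id1.

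The pools at the extremes were few. Among the 7 pools other than WT pool 1, KO pool 7 was highest for 5 of 8 members (Id1, Id3, Id4, Smad9 and Atoh8) and WT pool 7 was lowest for 6 (all but Id2 and Smad6, which were lowest in WT pool 2). The mean log2 level of the 8 members was 2.33, 2.34, 2.29 and 2.52 in KO pools 1, 2, 3 and 7. It was 0.48, 2.12, 2.32 and 1.97 in WT pools 1, 2, 5 and 7, so that WT pool 5 lay within the range of the KO pools. KO pool 7 also had the lowest Aldh1a2 level of all pools and WT pool 7 the highest. The median log2 fold change of the members was 0.26 in 7 pools, and 0.12 without WT pool 7 as well and 0.19 without KO pool 7. Leaving out WT pool 5 instead gave 0.36, with 6 of the 8 members not overlapping. With fewer pools in a group, groups overlap less often, and the share over all genes is not given for that setting. The count is therefore not a result about the members.

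Levels of cell type markers varied between the same pools. No marker listed had a limma adjusted p under 0.05, in 8 pools or without WT pool 1. The summed signal of 7 neuronal markers, as a multiple of the array's 75th percentile, was 20.2 to 27.0 in the KO pools and 7.49 to 20.9 in the WT pools. At least 6 of the 7 were well above background in every pool, and 6 of 7 had a positive log2 fold change in 8 pools (median 0.83) and 7 of 7 without WT pool 1 (median 0.58). The 9 heart muscle markers summed to 1615 to 1878 in the KO pools and to 428.2 to 2375 in the WT pools, with WT pool 7 highest. All 9 had a positive log2 fold change in 8 pools (median 0.34) and all 9 a negative one without WT pool 1 (median -0.18). Endothelial markers, 8 genes, summed to 18.6 to 24.0 in the KO pools and to 7.62 to 22.2 in the WT pools, with a median log2 fold change of 0.27 in 8 pools and -0.058 without WT pool 1. Erythroid markers, 7 genes, summed to 935.5 to 1493 in the KO pools and to 208.9 to 1427 in the WT pools, and 7 of 7 had a positive log2 fold change in 8 pools (median 1.17) and without WT pool 1 (median 0.76). The low end of each of these WT ranges was WT pool 1. Without it the WT sums were 14.4 to 20.9 for neuronal and 1622 to 2375 for heart muscle markers. They were 20.4 to 22.2 for endothelial and 757.3 to 1427 for erythroid markers. Of 6 macrophage and leukocyte markers 2 were positive in 8 pools (median -0.30) and 6 without WT pool 1 (median 0.36). The medians in 8 pools and without WT pool 1 were 0.39 and -0.12 for smooth muscle, -0.18 and 0.017 for neural crest and glia, -0.043 and 0.98 for epithelium, and 0.025 and 0.15 for epicardium. Of the 6 epithelial markers, 4 were positive without WT pool 1, while Krt8 and Krt18 were at -0.69 and -0.27. Only 4 of the 6 were well above background in KO pool 3 and in WT pool 7. The epicardium list includes Aldh1a2, the targeted gene. The part of these markers in the members' values was not tested.

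By the root mean square difference of centred log2 values over 8 pools, the closest of 16535 genes with a symbol was Ranbp3 for Id2 (0.049), Limd2 for Id3 (0.047) and Nlrp1a for Id1 (0.11). It was Csrnp2 for Id4 (0.10), Zdhhc16 for Smad6 (0.039), Tmc6 for Smad7 (0.055), Ovca2 for Smad9 (0.040) and Prkx for Atoh8 (0.068). None of these 8 genes was still the closest without WT pool 1, where Fanci was closest to Id2, Ccnyl1 to Id3, Dnmt3b to Id1, Bbip1 to Id4, Rwdd1 to Smad6, Sde2 to Smad7, Gm1976 to Smad9 and Cilk1 to Atoh8. Among members, Smad6 was the 117th closest gene to Id2, Id2 the 159th closest to Id3, and Smad9 the 145th closest to Id4. Leaving out WT pool 1 moved these places to 632, 1137 and 771. Other pairs moved closer, such as Id3 from place 7080 to 76 for Id4 and Smad9 from 6292 to 343 for Atoh8.

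No other gene listed for the BMP pathway passed the threshold either. The genes came from 9 lists, and 0 genes of any list passed in 8 pools or without WT pool 1. Of 7 ligand genes, 3 had a positive log2 fold change in 8 pools and 2 without WT pool 1, where the median was -0.39. Bmp2, a ligand of outflow tract muscle and cushions, had log2 levels of 1.97, 2.21, 2.07 and 1.98 in KO pools 1, 2, 3 and 7. In WT pools 1, 2, 5 and 7 they were 0.14, 2.51, 2.28 and 2.21. Its groups did not overlap without WT pool 1, the KO pools being lower as in 4.88% of all genes, with a log2 fold change of -0.28 ± 0.12 (SE; limma adjusted p = 0.468). Bmp6 had 0.39 ± 0.17 (limma adjusted p = 0.479) and overlapped.

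Receptors were split in size. Of 10 receptor and co-receptor genes, 9 had a positive log2 fold change in 8 pools and 6 without WT pool 1, where the median was 0.048. Bmpr1a, the type I receptor used most widely in the heart, was at 2.55, 2.52, 2.58 and 2.51 in KO pools 1, 2, 3 and 7, and at 0.69, 2.58, 2.52 and 2.53 in WT pools 1, 2, 5 and 7. Its log2 fold change without WT pool 1 was -0.0017 ± 0.082 (SE; limma adjusted p = 0.995), the value closest to 0 in the list. Bmpr1b, another type I receptor, had the largest, 1.59 ± 0.78 without WT pool 1 (SE; limma adjusted p = 0.512) and 0.55 ± 1.10 in 8 pools (limma adjusted p = 0.797). Its log2 levels were -3.03, -3.67, -4.0 and -2.57 in KO pools 1, 2, 3 and 7, and -0.76, -3.14, -4.92 and -6.68 in WT pools 1, 2, 5 and 7, so the WT pools were widely spread and the groups overlapped. The level in WT pool 7 is below that of Bambi on the same array, -6.37, which was not well above background. In that pool 9 of the 10 receptor genes were well above background, against 10 in every other pool. Among the 5 receptor-activated and common Smads, 4 were positive without WT pool 1, with a median of 0.16. Smad5, a transducer of BMP receptors, had 3.82, 3.77, 3.84 and 3.77 in KO pools 1, 2, 3 and 7, and 1.26, 3.62, 3.58 and 3.34 in WT pools 1, 2, 5 and 7. Its groups did not overlap with or without WT pool 1, and without it the log2 fold change was 0.29 ± 0.10 (SE; limma adjusted p = 0.424).

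Secreted antagonists and intracellular regulators were split in sign. Of 12 tested antagonist genes, 6 were positive and 6 negative without WT pool 1, with a median of -0.0028. Fst, which encodes the activin and BMP binding protein follistatin, had -0.79 ± 0.30 there (SE; limma adjusted p = 0.444), with no overlap and the KO pools lower. Twsg1, a BMP-binding modulator, had 0.36 ± 0.17 (limma adjusted p = 0.486). Of 16 intracellular regulators 7 were positive, with a median of -0.041. Smurf1, a ubiquitin ligase that acts on Smads, had -0.24 ± 0.12 (limma adjusted p = 0.516), and Pmepa1, a TGF-beta induced inhibitor, had 0.39 ± 0.26 (limma adjusted p = 0.611).

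Other genes described as BMP targets had mostly positive values, and none passed. Of 15 tested, 14 were positive in 8 pools and 11 without WT pool 1, where the median was 0.12. Tbx3, a T-box repressor, had 1.71, 1.30, 1.49 and 2.65 in KO pools 1, 2, 3 and 7, and -0.46, 1.02, 1.12 and 0.81 in WT pools 1, 2, 5 and 7. Its groups did not overlap with or without WT pool 1, and without it the log2 fold change was 0.81 ± 0.31 (SE; limma adjusted p = 0.448). Gata2, a factor of blood and endothelium, had 0.67 ± 0.22 (limma adjusted p = 0.402). Junb, an immediate early gene, lay in the other direction at -0.60 ± 0.14 (limma adjusted p = 0.345), with no overlap with or without WT pool 1. In 8 pools 1.54% of all genes did not overlap with the KO pools lower.

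Genes known to respond to TGF-beta and activin through Smad2 and Smad3 had fewer positive values. Of 10 tested, 5 were positive in 8 pools and 3 without WT pool 1, where the median was -0.083. Cdkn1a, the cell cycle inhibitor p21, had log2 levels of 0.28, 0.16, 0.75 and -0.41 in KO pools 1, 2, 3 and 7, and 0.15, 1.14, 1.23 and 1.76 in WT pools 1, 2, 5 and 7. The groups did not overlap without WT pool 1, and the log2 fold change was -1.18 ± 0.28 (SE; limma adjusted p = 0.346). Ccn2, a matricellular growth factor, had -0.80 ± 0.33 there (SE; limma adjusted p = 0.462) and overlapped.

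**Figure D4:**
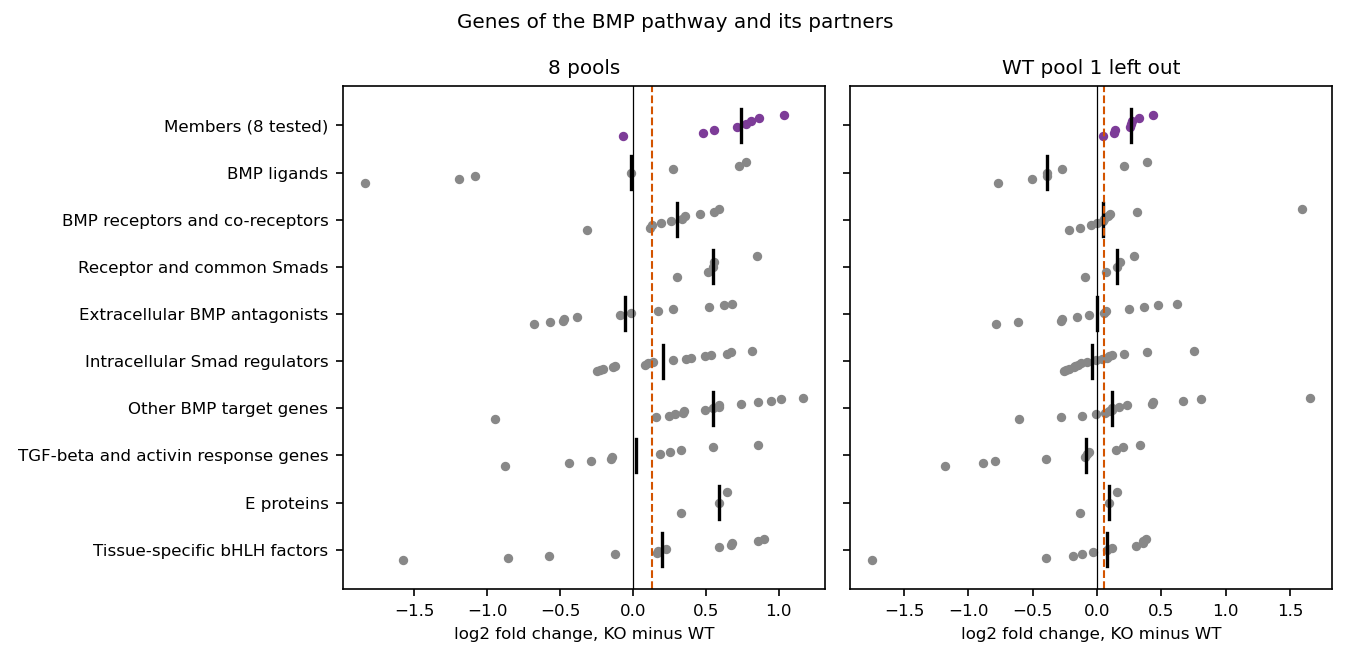
Log2 fold change, KO minus WT (horizontal axes), of every tested gene in the member list (purple) and 9 lists of the pathway and its partners (grey), in 8 pools (left) and with WT pool 1 left out (right). Black bars are list medians and the dashed line is the median over all genes. The member median lies at 0.74 on the left and 0.26 on the right, against dashed lines at 0.13 and 0.052.

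No partner of the Id proteins passed the threshold. The E proteins, which Id proteins bind directly, had log2 fold changes of 0.15 ± 0.17 for Tcf3, -0.13 ± 0.11 for Tcf4 and 0.091 ± 0.12 for Tcf12 without WT pool 1 (SE). In 8 pools they were 0.65, 0.33 and 0.59, with a median of 0.59. Of 18 tissue-specific bHLH genes 12 were tested in 8 pools and 11 without WT pool 1, where 6 were positive with a median of 0.076. Bhlhe40, a repressor that low oxygen induces, had -0.50, -1.47, -0.190 and -1.89 in KO pools 1, 2, 3 and 7, and 0.069, 0.78, -0.185 and 1.62 in WT pools 1, 2, 5 and 7. It had the largest difference of that list, -1.75 ± 0.54 (SE; limma adjusted p = 0.382), with KO pool 3 and WT pool 5 almost level and no overlap. Hand2, needed for the second heart field and neural crest, had 0.36 ± 0.18 (limma adjusted p = 0.510).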

How the data were processed

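Total RNA of 8 pools, each of 4 outflow tracts, was labelled with Cy3 and hybridised to 8 arrays of 1 slide, per the labels' protocols. The deposited scanner files hold the intensity of each spot as the processed signal of Agilent Feature Extraction 10.7.3.1, per the file headers, which also name mm9 as the build of the probe positions. The series' table of values held the same intensity values, to within 0.496%, as deposited by the authors.

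From there, control spots and spots marked as outliers were left out, spots of a probe were averaged, and log2 of the signal minus log2 of the array's 75th percentile was taken. Probes well above background on 3 or more arrays of a group were kept (33400 probes). Of a gene's kept probes, the brightest on average was used. Genes were tested with limma 3.58.1 (lmFit and eBayes, R 4.3.3) and Benjamini-Hochberg adjustment over all genes tested, at 0.05. The script was tested on simulated data with the noise of the pools other than WT pool 1. The median residual SD was 0.668 in 8 pools and 0.207 without WT pool 1. That test therefore does not cover the spread of all 8 pools. The number of arrays limits the precision.

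The members and the gene lists were chosen with earlier results of these data known. The genes named are the members, Aldh1a2, the E proteins, genes of each pathway list among the 3 smallest unadjusted p-values with or without WT pool 1, and the gene most like each member. Not all of the genes that this rule picks are described, and 1 is not reported here. Alternatives changed the scaling, background correction, probe filter, array weights, blocks and pools. Leaving out 1 more pool after WT pool 1 was chosen after seeing the data. The numbers were not taken as pairs, as the labels do not tie them. Deviations of same-numbered pools from their group means correlated at -0.15, 0.32 and -0.41 for numbers 1, 2 and 7. WT pool 1 is among these pools, so the correlations cannot decide whether the numbers are pairs.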

Additional observations from a re-analysis of the deposited data

Results flagged for a closer look

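In groups of 4 pools, a pool was singled out where its gap to the nearest other pool, divided by the range of the group, was over Dixon's 95% critical value. Chance alone does this in about 1 in 20 groups. Of 20 groups checked, 7 held such a pool. WT pool 1 was far below the other WT pools for Id1, at a log2 level of 1.29 (gap over range 0.982), for Id2 at 2.22 (0.879), for Smad6 at 1.09 (0.850) and for Smad9 at -1.60 (0.842). The median processed signal of its array was 2023 (0.991), against at most 83.0 on the other 7 arrays. KO pool 7 was above the other KO pools for Id4, at a log2 level of 0.45 (0.873), and below them for Smad7, at 2.05 (0.899).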

How the results depend on the processing

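No member passed under any alternative tried, and the log2 fold changes of Id1, Id2, Id3, Id4, Smad6, Smad7 and Smad9 were positive under all of them. Leaving out 1 of the 8 pools gave a member median of 0.26 (without WT pool 1) to 0.96 (without WT pool 5), 2 to 6 members that did not overlap (6 without WT pool 5) and 0 genes past the threshold. Leaving out 1 more pool after WT pool 1 gave a median of 0.12 to 0.36, 2 to 6 members that did not overlap, and 0 to 8 genes past the threshold, with 1 gene without KO pool 7 (median 0.19) and 8 without WT pool 5. Median scaling gave a member median of 1.28 with 0 members that did not overlap, and normexp background correction gave 1 such member. The share of all genes that did not overlap is given only for the main scaling, with 8 pools and without WT pool 1. Member counts under the other settings therefore have no background to be read against. Quantile scaling gave a median of 0.47, with Id4 at 1.30 and Smad9 at 1.35, against 0.59 for Id1, 0.30 for Id2, 0.35 for Id3, 0.32 for Smad6 and 0.67 for Smad7; normexp gave a median of 0.48, with Id4 at 0.92 and Smad9 at 0.86. Array weights gave a member median of 0.18 and 8 genes past the threshold. Atoh8 turned positive, at 0.049 with quantile scaling, 0.47 with median scaling, 0.11 with normexp, 0.011 with array weights and 0.038 with quantile scaling without WT pool 1. Leaving out 1 of the 8 pools gave it -0.15 to 0.046 (0.046 without WT pool 1), and leaving out 1 more gave between -0.021 and 0.12. The positive values there were 0.028, 0.099, 0.054, 0.0032, 0.042 and 0.12. The cause was not tested. The share of genes with a positive log2 fold change was 57.1%, but 67.6% with quantile scaling, 82.2% with median scaling and 39.1% without a filter on dim probes, where the medians of all genes were 0.21, 0.67 and -0.30. With the pool number as a replicate block the member median was 0.957 and 0 genes passed, which changed no call.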
